A study of Mus musculus with 67 samples.

Results

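Of the 45 mouse vascular smooth muscle cells (VSMCs) sequenced at passage 2, 10 had a deposited value of at least 10 for Mki67 or Top2a, and the members were chosen by these 2 measured values. These 10 cells are described here against the other 35, in which both genes were below 10. The whole series held 67 cells, 22 of them at passage 1, each sequenced as 1 library. Mki67 codes for Ki-67, a chromosome surface protein of dividing cells, and Top2a for the topoisomerase that untangles DNA before chromosomes separate. The 10 cells are called Mki67/Top2a cells below, and single cells are given by a number that is only a name.

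The mice were C57Bl6, male, adult and 3 to 4 months old, and the cells, isolated from the descending aorta, were grown in DMEM with 10% serum and 1% antibiotic. They stood undisturbed for 5 days, and passage 1 cells were then lifted with trypsin and replated to give passage 2. Mki67/Top2a cells and the other cells of a passage share strain, sex, age, medium and capture system (Fluidigm C1) in the labels, and were told apart by the rule alone. No animal or culture is named for a cell, so the cells of a passage are 1 sample. SDs and ranges below describe the spread between cells, no p-value was computed, and the differences have no replicate check.

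A dividing cell copies its DNA in S phase, condenses and separates its chromosomes in G2 and M phase, and switches on a set of genes for each step. VSMCs of the vessel wall seldom divide and hold a large contractile apparatus of smooth muscle actin, myosin and the proteins that anchor them. In culture they lose part of that apparatus and can enter the cell cycle, a change known as phenotypic modulation.

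Promoters of cell cycle genes with high means in the Mki67/Top2a cells are shown so that their letters stand beside the values of these genes, which were high in different cells. Windows of 300 bases (250 before the start site and 50 after it) come from RefSeq, build GRCm38.p6, and were found for 30 of 43 genes of an S phase list and for 43 of 52 of a G2 and M phase list. Capitals mark a CCAAT box (CCAAT) or the core of a cell cycle homology region (CHR, TTTGAA), each searched on both strands. The Rrm1 window, for a subunit of the enzyme that makes deoxynucleotides, lies at chr7:102441445-102441744 on the plus strand. Slbp, the histone mRNA binding protein, has its window at chr5:33652525-33652824 on the minus strand. Anln, an actin binding scaffold of the cleavage furrow, has its window at chr9:22389157-22389456 on the minus strand. The Acta2 window, for smooth muscle actin, lies at chr19:34255324-34255623 on the minus strand and is shown as that of a contractile gene.
Rrm1: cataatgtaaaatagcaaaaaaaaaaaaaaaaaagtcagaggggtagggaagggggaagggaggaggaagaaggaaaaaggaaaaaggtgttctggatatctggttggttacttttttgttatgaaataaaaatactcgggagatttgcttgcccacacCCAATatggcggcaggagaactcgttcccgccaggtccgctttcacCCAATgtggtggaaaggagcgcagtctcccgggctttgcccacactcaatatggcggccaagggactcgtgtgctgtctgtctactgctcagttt
Slbp: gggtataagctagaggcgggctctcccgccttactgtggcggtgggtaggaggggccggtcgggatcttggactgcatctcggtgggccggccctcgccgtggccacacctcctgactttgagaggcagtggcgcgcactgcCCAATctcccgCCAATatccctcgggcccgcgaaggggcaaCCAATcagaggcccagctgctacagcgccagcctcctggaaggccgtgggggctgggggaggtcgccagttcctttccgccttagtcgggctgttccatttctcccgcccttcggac
Anln: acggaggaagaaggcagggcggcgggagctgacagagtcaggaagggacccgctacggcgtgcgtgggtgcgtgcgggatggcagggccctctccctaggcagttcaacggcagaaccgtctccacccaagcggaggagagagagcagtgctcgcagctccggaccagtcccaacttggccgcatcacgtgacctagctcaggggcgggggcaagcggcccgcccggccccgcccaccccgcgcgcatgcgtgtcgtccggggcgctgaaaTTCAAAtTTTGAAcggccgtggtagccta
Acta2: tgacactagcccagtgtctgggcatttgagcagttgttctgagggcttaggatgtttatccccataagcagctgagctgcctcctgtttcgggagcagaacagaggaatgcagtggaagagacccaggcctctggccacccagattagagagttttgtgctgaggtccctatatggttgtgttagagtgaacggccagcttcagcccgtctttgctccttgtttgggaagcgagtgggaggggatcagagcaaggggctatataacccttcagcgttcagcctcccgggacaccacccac
The Rrm1 window held CCAAT 91 and 45 bases before the start site, and the Slbp window held it 108, 97 and 67 bases before. The Anln window held the CHR letters in both orientations just after the start site and no CCAAT. Windows of Rrm2 and Nuf2 were also found and are not shown. The Rrm2 window held CCAAT 50 bases before the start site, and the Nuf2 window held neither CCAAT nor the CHR letters. Of 47 windows of the G2 and M phase list, 66% held the CHR core, against 17.9% of all 32851 windows. CCAAT was in 76.6% of those 47 windows and in 37.4% of all. The E2F letters TTTCCCGC, TTTGGCGC, TTTGCCGC and TTTCGCGC, on either strand, were in 39.4% of 33 windows of the S phase list and in 2.26% of all. A match is only the presence of these letters. The Acta2 window held none of these 3 motifs, no TATAAA and no exact CArG box (CC, a run of A or T, then GG). An exact search passes over near matches. In this window ccctatatgg and ccttgtttgg each differ from a CArG box by a single letter, and tatataa is close to TATAAA. The Acta2 window does not stand for other contractile genes. Of 23 windows of a contractile list, 43.5% held CCAAT and 13% the CHR core. A CArG box was in 13% of them and in 1.63% of all, and TATAAA in 13% and 13.6%.

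The rule set the groups apart in the 2 values that chose them, by more in Mki67 than in Top2a. Mki67 (chromosome 7, 135689784 to 135716361, GRCm38) ran from 0 through a median of 70.1 to 556 in the 10 cells, and from 0 through 0 to 2.83 in the others. Values are normalised counts, gene counts divided by a size factor for each cell. Top2a (chromosome 11, 98992943 to 99024189) ran from 0 through 12.3 to 424 in the 10 cells and from 0 through 0.694 to 3.25 in the others. The lowest value that chose a cell was 32.7 for Mki67 and 10.6 for Top2a, and 15 of the 35 others had no read of either gene. Both genes were at 10 in 3 cells (8, 9 and 14), Mki67 alone in 4 (13, 15, 20 and 28) and Top2a alone in 3 (30, 32 and 45). In the Top2a-only cells Top2a was 14.1, 10.6 and 17.9, and no Mki67 read was present.

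**Figure D1:**
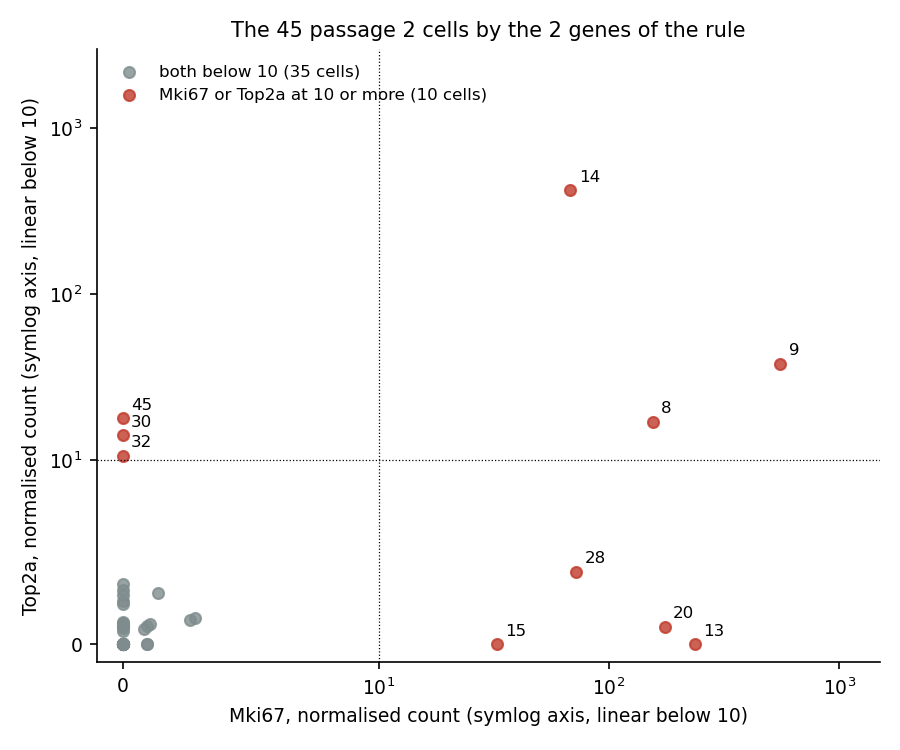
Normalised counts of Mki67 (x axis) and Top2a (y axis) in each of the 45 passage 2 cells, on axes that are linear below 10 and logarithmic above. Red points with numbers are the 10 cells at 10 or more for either gene (dotted lines), and grey points the 35 others. Cells 30, 32 and 45 sit at 0 on the Mki67 axis.

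The share of Mki67/Top2a cells was 22.2% at passage 2 (10 of 45 cells, exact Clopper-Pearson 95% interval 11.2% to 37.1%). The same rule chose 16 of 22 cells at passage 1, or 72.7% (49.8% to 89.3%). These intervals cover counting error only, and passage and library set cannot be told apart.

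The label of cycling cells was compared with cell cycle genes that the rule did not use, and 7 of the 10 cells stood apart in them. Of 52 G2 and M phase genes, the 35 other cells had 2 to 10 at a value of 10, with a median of 5. Cells 8, 9, 13, 14, 15, 20 and 28 had 18, 44, 12, 32, 11, 12 and 24 such genes, all above that range. Cells 30, 32 and 45 had 3, 6 and 5, inside the range of the other cells. The data thus go against the label in these 3 cells, and the group is called by its rule.

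The summed value of the same 52 genes was 352, 2615 and 10228 (lowest, median and highest) in the Mki67/Top2a cells and 134, 336 and 794 in the others. The 3 Top2a-only cells summed to 825, 352 and 459, so that 2 lay inside the others' range and cell 30 just above it. The other 7 lay at 1099 or more.

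S phase genes separated fewer of the cells. The summed value of 43 S phase genes was 496, 803 and 7095 in the Mki67/Top2a cells and 93.8, 418 and 1733 in the others. Cells 8, 9, 13 and 28 lay above all other cells, and all 10 lay above the others' median. Cell 8 was highest, with 31 of the 43 genes at 10 and a G2 and M phase sum of 2327. Cells 9 and 14 had the highest G2 and M phase sums, 10228 and 9532, and cell 14 had an S phase sum of 644, inside the others' range.

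**Figure D2:**
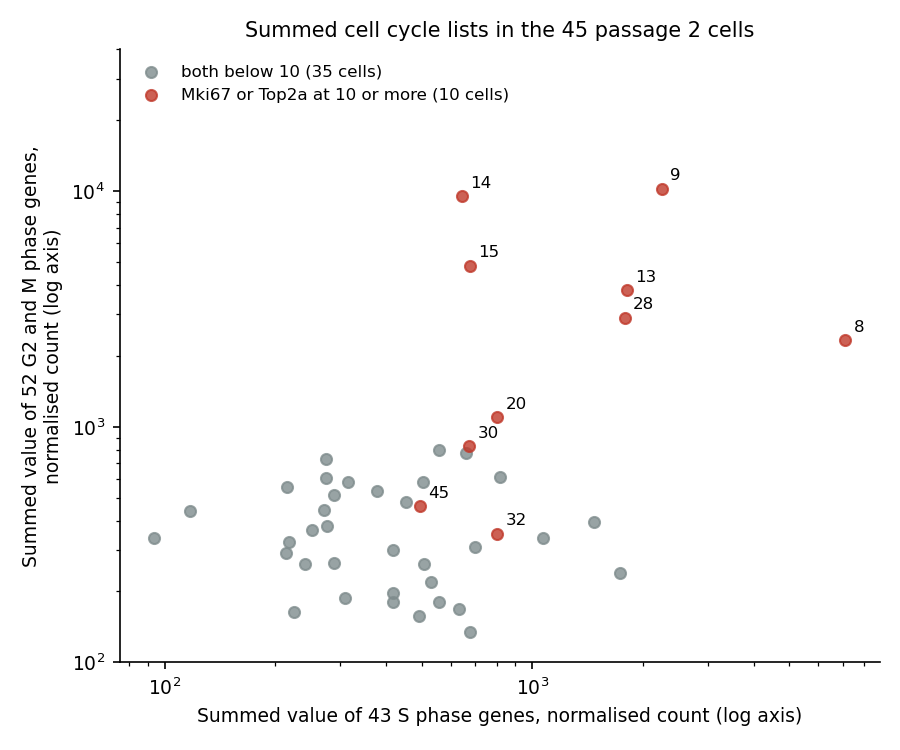
Summed normalised counts of 43 S phase genes (x axis) against 52 G2 and M phase genes (y axis), both on log axes, in each of the 45 passage 2 cells. Cell 8 lies far right at an S phase sum of 7095 and cells 9 and 14 at the top, while red points 30, 32 and 45 lie among or next to the grey points.

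The 2 groups had like depth, and some cells stood apart. The Mki67/Top2a cells held 640770 to 1509589 reads and the others 548419 to 1358273, with 7263 and 7239 genes with a read at the median. Cells 13 and 15 had the fewest genes of all, 4163 and 4754, where the others had 6228 or more, and their 50 highest genes took 29.5% and 31.2% of reads. Cell 8 had 9 of 10 endothelial markers at a value of 10 and 3 of 10 smooth muscle markers, and cell 11 of the other group had 8 endothelial markers. Defining markers of lymphocytes, erythroid cells, striated muscle and mesothelium were too low for any gene of these lists to be compared.

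Across genes, a log2 ratio was taken of the mean over the 10 cells plus 1 to the mean over the 35 cells plus 1. A gene met the size rule where the ratio was at least 1 in size (2-fold) and where at least 70% of the pairs of a Mki67/Top2a cell and another cell had the same direction. Of 9325 genes with enough reads, 137 met the rule higher in the Mki67/Top2a cells (1.47%) and 377 lower (4.04%). The median log2 ratio of all 9325 genes was -0.29, and it was -0.14 on counts scaled to the read total, so ratios are read against that. Of all 9325 genes 5617 were below 0 and 3708 above, and counts by direction are read against those. Of the genes past the rule 26.7% were higher, and on counts scaled to the read total 37.7% (189 higher and 312 lower). The values of every gene compared, in the cell cycle list or outside it, overlapped between the groups. The measures below come from the contrast that chose the cells and are descriptions.

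G2 and M phase genes were the highest group. Of 52 genes, 38 had enough reads, 13 met the size rule higher and none lower, and the median log2 ratio was 4.36. A list that keeps genes with enough reads holds those that were high in few cells, so this median does not stand for all 52. It was 0.67 when medians over cells replaced means, since most of these genes were near 0 in the typical cell of both groups. At passage 1 the median log2 ratio of the list was 3.21.

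Nuf2, a kinetochore protein that holds microtubules, had the highest ratio of the named cell cycle genes. Its values ran from 0 through 24.4 to 1401 in the Mki67/Top2a cells and from 0 through 0 to 2.64 in the others, a log2 ratio of 7.44. Cell 15 alone held 1401, and without cells 13 and 15 the log2 ratio of Nuf2 was 5.47. Cells 9, 13, 14, 15 and 20 held 44.2 or more, cell 28 held 4.59, and the remaining 4 held 1.88 or less, within the range of the other cells.

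Cenpa, the histone of centromeres, ran from 0 through 91.7 to 544 against 0, 0 and 137 in the others, with a log2 ratio of 4.28. It was at 10 in 7 of 10 and in 3 of 35 cells, and without cell 29 of the other group its log2 ratio was 5.09. Ccnb2, a cyclin of mitotic entry, had values of 0, 48.4 and 720 against 0, 0 and 205, with a log2 ratio of 4.43. A single other cell, number 4, held the 205, and without it the log2 ratio of Ccnb2 was 6.69. Both groups overlapped in these genes, with cells 30 and 32 at 0.94 or less.

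Anln had values of 0, 47.2 and 1260 against 0, 0.892 and 323, with a log2 ratio of 3.47, or 2.73 without cell 14. Cell 30, which had few other G2 and M phase genes, held 722 of Anln. Smc4, a condensin subunit that compacts chromosomes, reached 340 at the median against 26.7, and Ccna2, a cyclin of S phase and G2, 4.21 against 8.61. Neither met the size rule, since 68.7% and 49.7% of pairs were higher in the Mki67/Top2a cell. The other genes of the list that met it were Cdk1, Tpx2, Tacc3, Bub1, Kif20a, Kif2c, Ncapd2, Ect2 and Hmmr, which act in mitotic entry, the spindle, its checkpoint, condensation and cytokinesis. Without the endothelial marker cells 8 and 11, Anln, Bub1, Ect2 and Kif2c had log2 ratios of 3.50, 4.23, 4.40 and 5.50 and missed the pair share. Tpx2 missed it without cells 13 and 15 (4.73), and Smc4 met the rule without cells 30, 32 and 45 (2.99).

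Of 43 S phase genes, 29 had enough reads, and 2 met the size rule, Rrm1 and Uhrf1, both higher. The median log2 ratio of the S phase list was 0.97, and 24 of 29 genes were above 0, beside 3708 of all 9325. This median was 0.37 without cells 8 and 11 and 1.84 without cells 13, 15, 30, 32 and 45. Rrm1 ran from 0 through 237 to 646 in the Mki67/Top2a cells and from 0 through 1.19 to 225 in the others, with a log2 ratio of 4.21. It was at 145 or more in 8 of the 10 cells, cell 30 included, and at 3.97 and 0 in cells 32 and 45. Rrm1 was higher in 87.9% of pairs, had 4.92 without cell 34 of the other group, which held 225, and met the rule under each removal of cells tried.

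Uhrf1, which keeps DNA methylation on new strands, had values of 0, 50.4 and 745 against 0, 0 and 24.3. Its log2 ratio was 5.51, or 4.42 without cell 8, and without the endothelial marker cells 8 and 11 it was 4.41 and missed the pair share of the rule. Rrm2, the partner subunit of Rrm1, was high in cells 8, 9, 13 and 28 only, at 666, 582, 374 and 179, and had a log2 ratio of 5.34 with 63.1% of pairs. Slbp, Tyms and Prim1, for histone mRNA, thymidylate and primers of replication, had log2 ratios of 1.30, 0.57 and 3.63, and none met the rule. Without cell 8 the log2 ratio of Slbp was 0.14. Rrm2 met the rule without cells 30, 32 and 45 (5.85), and Tyms and Prim1 met it without those and cells 13 and 15 (1.21 and 2.35).

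A broad cell cycle list of 454 genes was set aside to look at the rest. Of its 241 genes with enough reads, 29 met the size rule higher (12%) and 1 lower (0.415%), the replication kinase gene Cdc7 at -1.01, which missed the rule at -0.71 without cells 13 and 15. Outside the list 9084 genes had enough reads, and 108 met the rule higher (1.19%) and 376 lower (4.14%). Of these, 92 and 233 also reached 10 in 50% or more of the group where they were higher and kept their direction whichever cell was left out. The 15 genes with the highest and the 15 with the lowest ratio among them are named.

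Diaph3 had the highest ratio of the 15 higher genes named outside the list. It codes for a formin that builds unbranched actin filaments and is known from cytokinesis (chromosome 14, 86655367 to 87141235, GRCm38). Cells 8, 9, 13, 14, 15, 20 and 28 held 10.0, 64.7, 85.3, 190, 35.6, 13.2 and 428, and cells 30, 32 and 45 held 0, 0 and 0.996. In the 35 others Diaph3 ran from 0 through 0 to 4.08. The 7 cells above all others are the same 7 that stood apart in their number of G2 and M phase genes.

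Diaph3 was at 10 in 0 of 35 other cells, which allows a share of up to 8.57%. It had 1155 reads in the 10 cells and 9 reads in the 35, and its log2 ratio was 6.03, with 87.7% of pairs higher. Cell 28 held most of these reads, and without it the log2 ratio of Diaph3 was 5.15. At passage 1 the log2 ratio of Diaph3 was 1.23, also past the size rule, with 14 of 16 and 2 of 6 cells at 10.

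Ripk3, the kinase of the necroptosis pathway, was next (chromosome 14, 55784995 to 55788865). It was at 10 in 5 of 10 cells, numbers 9, 13, 20, 28 and 30, which held 54.3, 19.2, 26.4, 114 and 149. The other 5 had no read, and the 35 others had at most 2.20. The log2 ratio of Ripk3 was 4.93, and it met the size rule under each removal of several cells tried. Without cell 30 it was 4.34. Leaving out any 1 of the 5 cells that held Ripk3 took it below the pair share of the rule. At passage 1 its log2 ratio was 1.23 and missed the rule.

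Sae1, a subunit of the enzyme that activates SUMO, was at 10 in 8 of 10 and in 15 of 35 cells. It ran from 0 through 117 to 592 against 0, 3.13 and 165, with a log2 ratio of 3.03 and 82.9% of pairs. Cells 13 and 15 held its 2 highest values, 592 and 533, and without them the log2 ratio of Sae1 was 2.04. Abcf1, which binds ribosomes and takes part in the start of translation, was at 10 in 9 of 10 and 19 of 35 cells, with values of 3.97, 69.8 and 382 against 0, 11.7 and 189. Its log2 ratio was 2.38, with 83.4% of pairs. Only part of the cells lay above the others' range in these genes, 4 of 10 in each.

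Pmf1, a kinetochore subunit that the broad list did not hold, had values of 0, 65.7 and 325 against 0, 0 and 164 and a log2 ratio of 2.64. Tmf1, a Golgi protein, had values of 0.655, 169 and 662 against 0, 10.7 and 152, and 6 of 10 cells lay above all others. The remaining genes of the 15 were Serpinb8 (log2 ratio 3.51), a protease inhibitor, Papss1 (3.39), which makes the sulfate donor of the cell, and ENSMUSG00000091747 (2.61), which has no symbol in the annotation. They further included Stx6 (2.57), a SNARE of the Golgi and endosomes, 2810025M15Rik (2.50), Noc2l (2.44), a nucleolar protein, Cystm1 (2.44), Spg7 (2.34), a mitochondrial protease, and Wbp1 (2.34).

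Several of these rest on 1 or 2 cells. Cell 15 held 1008 of Papss1, and without cells 13 and 15 the log2 ratio of Papss1 was 1.78. Without cells 30, 32 and 45, Papss1, Noc2l and Tmf1 had 3.60, 2.18 and 2.18 and missed the pair share of the rule. Papss1 also missed it without cells 8 and 11 (3.47), and Wbp1 without the 25% of cells with the fewest genes (2.06). Without all 5 cells the log2 ratios of Serpinb8 and Papss1 were 0.60 and 0.55, and that of Noc2l was -0.51, the opposite direction. ENSMUSG00000091747 had 0.98 without cell 20, which held 398. Leaving out 1 cell also moved Noc2l to 1.54 (cell 13), Stx6 to 1.90 (cell 13), Spg7 to 1.56 (cell 8), Wbp1 to 1.33 (cell 14) and Serpinb8 to 2.67 (cell 15). The log2 ratio of 2810025M15Rik went up to 3.29 without cell 31 of the other group, and that of Papss1 down to 1.61 without cell 15.

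The ranges of the 2 groups overlapped in the named genes that were lower in the Mki67/Top2a cells. Wdr26, a subunit of the CTLH ubiquitin ligase, had the highest pair share of the named genes (chromosome 1, 181173228 to 181212001). Cells 8, 9, 14, 28 and 32 held 21, 29.3, 10.2, 40 and 27.8, and the remaining 5 held at most 1.89. In the others Wdr26 ran from 0.931 through 141 to 1158 and was at 10 in 34 of 35 cells. It was lower in 97.1% of pairs, with a log2 ratio of -3.91, and all 10 cells lay below the others' median.

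Wdr26 had 149 reads in the 10 cells and 7643 in the 35. Its log2 ratio was -3.61 without cells 13 and 15, where it was not read, and -3.31 without those and cells 30, 32 and 45. At passage 1 the log2 ratio of Wdr26 was -0.93 and missed the size rule.

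Nhs, which shapes the actin network at the cell edge, had the lowest ratio of the 15 lower genes named outside the cell cycle list. Its values were 0, 0.826 and 14.7 against 0, 48.6 and 778, a log2 ratio of -5.13. Nr2c2, a nuclear receptor, had a log2 ratio of -4.98, Pkn2, a protein kinase, -4.45, and Gpc3, a glypican, -4.25. Ttc28, known from the midbody of dividing cells, had 0, 0.267 and 8.01 against 0, 16.3 and 275, a log2 ratio of -4.13. The median of the Mki67/Top2a cells was below 1 in each of these 5 genes, and the ranges of the groups overlapped.

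The list went on with Auts2 (log2 ratio -4.09) and Btaf1 (-3.98), both regulators of transcription, Tmem140 (-3.89), Plekhh2 (-3.77) and Prkacb (-3.73), a catalytic subunit of protein kinase A. C1galt1c1 (-3.65), a chaperone of O-glycosylation, and Ide (-3.43), the insulin degrading enzyme, followed. Slc6a6, the taurine transporter, had values of 0, 19.3 and 349 against 0, 373 and 3334, with a log2 ratio of -3.48. Spred1, an inhibitor of the Ras pathway, had 0, 2.50 and 38.8 against 0, 25.9 and 744, with -3.47. Prkacb missed the pair share of the rule without cells 30, 32 and 45 (log2 ratio -3.47), Spred1 missed it without cells 13 and 15 (-3.18), and Ide without all 5 (-2.52). Single cells held a large part of what was read of several of these genes, and leaving out 1 cell made the ratio lower still. Without cell 14 the log2 ratios of Gpc3, Nhs and Btaf1 were -7.64, -5.74 and -4.89, and without cell 20 those of Nr2c2 and Prkacb were -6.24 and -4.64. Without cell 30 Tmem140 and C1galt1c1 had -6.11 and -4.32, without cell 32 Slc6a6 and Plekhh2 had -4.78 and -4.44, without cell 9 Ide had -5.49 and without cell 8 Pkn2 had -5.57.

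**Figure D3:**
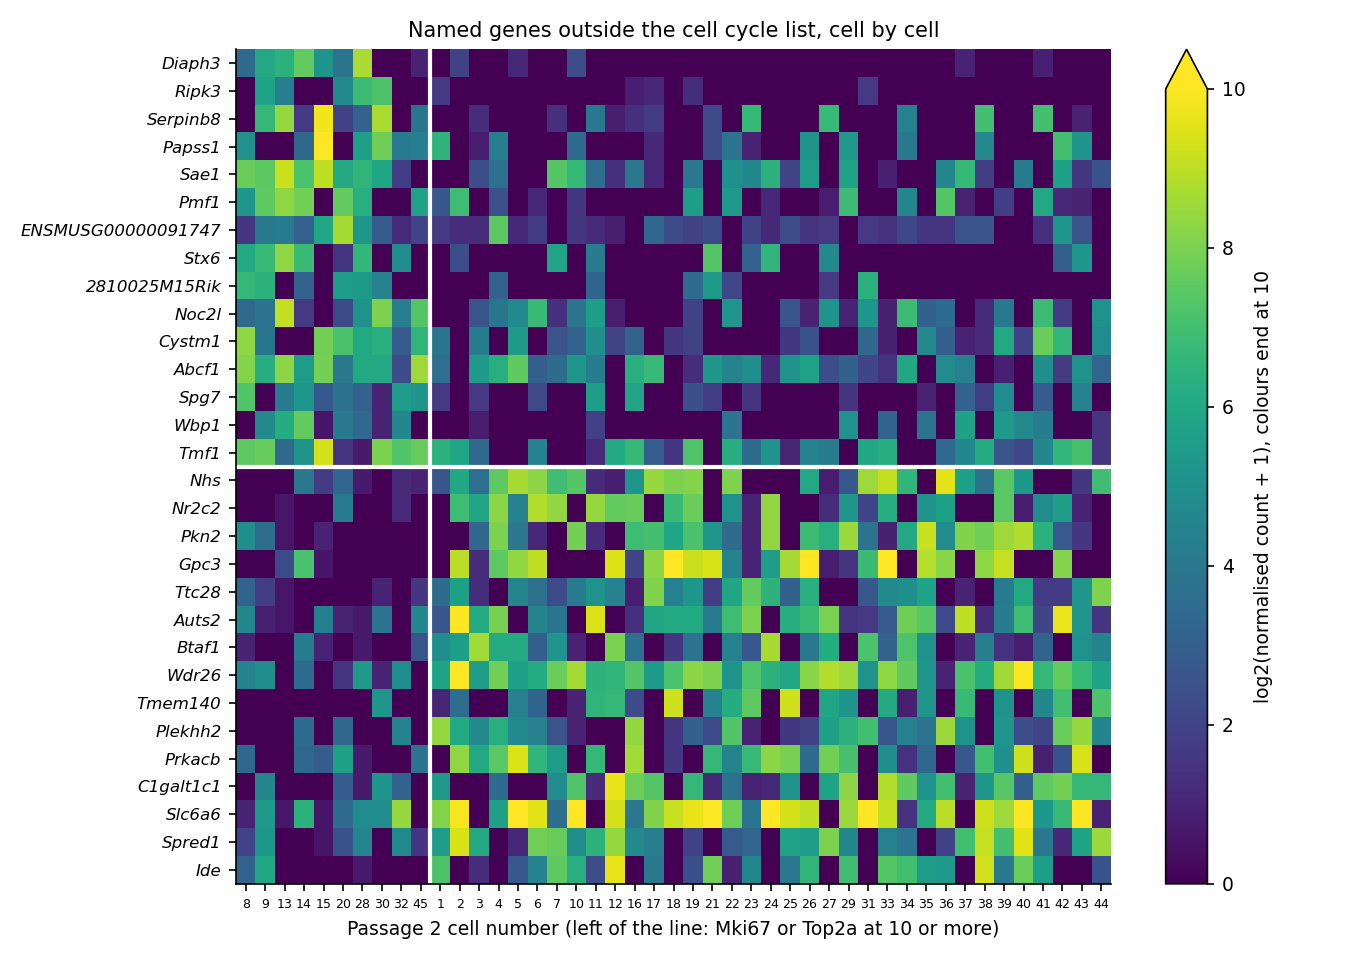
log2(normalised count + 1) of the 15 highest (top) and 15 lowest (bottom) named genes outside the cell cycle list (rows) in the 45 passage 2 cells (columns, by cell number). The 10 Mki67/Top2a cells stand left of the white line. Diaph3 is bright in 7 of them and dark in nearly all others, and Wdr26 is at 40 or less in the 10 and at 10 or more in 34 of 35 others.

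The same genes were looked up at passage 1, in cells that did not choose them. There the rule gave 16 and 6 cells, and of 9288 genes 8.68% met the size rule higher and 3.33% lower. The 6 cells had 5 to 18 of the 52 G2 and M phase genes at 10, with a median of 14.5. The 35 other cells of passage 2 had 2 to 10, so a passage 1 ratio is not the same contrast as one at passage 2. Passage 1 cells 11 and 14, which are among the 6, also had 6 and 5 endothelial markers at 10. Of 105 genes outside the cell cycle list that were higher at passage 2 and compared at both passages, 12 were higher at passage 1 (11.4%, beside 7.14% of all 8055 genes), and 2 were lower. Of 355 lower at passage 2, 15 were lower at passage 1 (4.23%, beside 3.6%), and 26 were higher. Shares near those of all genes are no result about these genes. In the cell cycle list 16 of 29 were higher at both (55.2%, beside 42.8% of 236 genes), and Cdc7 did not meet the rule lower at passage 1, as 0.847% of the 236 did.

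Among the 30 named genes, Diaph3, Sae1, Pmf1 and ENSMUSG00000091747 met the rule higher at both passages, with passage 1 log2 ratios of 1.23, 1.10, 1.71 and 1.90. Slc6a6 and Spred1 were lower at both, with -1.32 and -1.34 at passage 1. Cystm1 had -1.55 and Nhs 1.54 at passage 1, opposite in sign to passage 2, and neither met the rule there. Outside the rule for names, and chosen after their values were seen, Ddx27, a nucleolar RNA helicase, had 2.23 and 3.01 at passages 2 and 1. Dnm2, the dynamin of membrane scission, had 1.83 (0.93 without cells 13, 15, 30, 32 and 45) and 1.82, and Nsd2, a histone methyltransferase, 1.85 and 2.96.

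**Figure D4:**
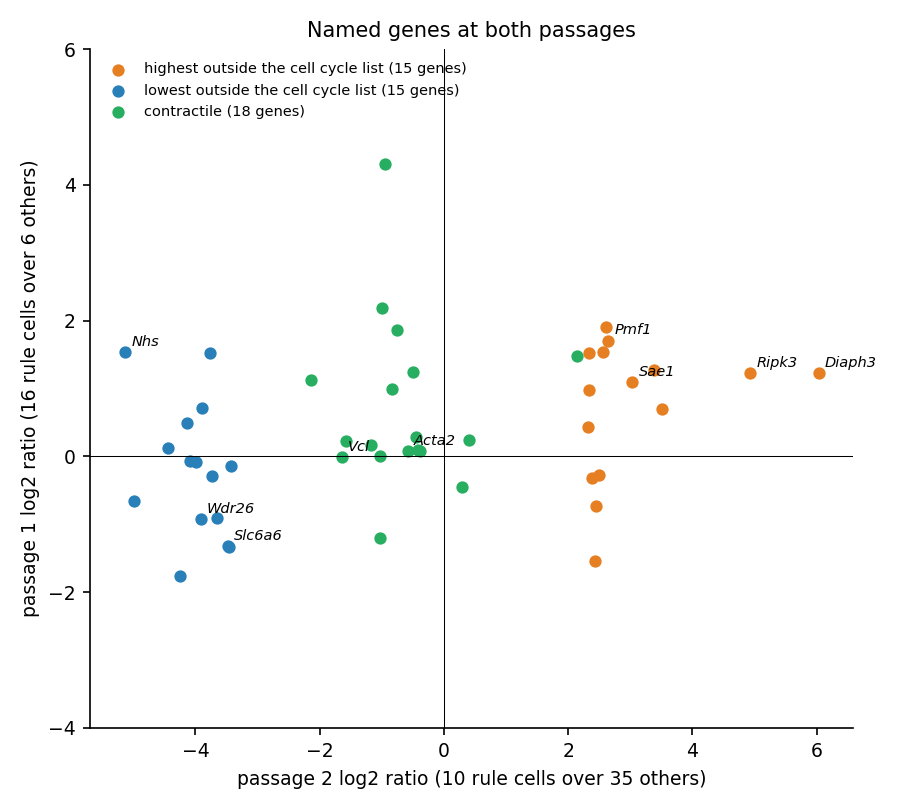
Log2 ratio of Mki67/Top2a cells over other cells at passage 2 (x axis, 10 and 35 cells) and at passage 1 (y axis, 16 and 6 cells) for the named genes outside the cell cycle list and the reported contractile genes with enough reads at both passages. Diaph3 lies at 6.03 and 1.23, and Vcl at -1.65 and -0.01.

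Contractile genes were present in the Mki67/Top2a cells at levels within the range of the other cells. The summed value of the 24 contractile genes was 3294, 7582 and 21071 in the Mki67/Top2a cells and 2989, 10651 and 36530 in the others. All 10 cells lay inside the others' range, and 2 lay above the others' median. Cells 14 and 32 held the highest sums, 21071 and 15518, and cells 8 and 30 the lowest, 3294 and 3741. Of the 24 genes, 8 to 16 were at 10 in a Mki67/Top2a cell and 8 to 19 in another cell.

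Of the 24 genes, 21 had enough reads, 4 met the size rule lower, among them Vcl, Lmod1 and Itga8, and none higher. The median log2 ratio of the contractile list was -0.83, beside -0.29 for all genes. Below 0 were 17 of the 21, beside 5617 of all 9325 genes. The list's median lay between -0.84 and -0.29 under the 17 other settings, in which the median of all genes moved too. In cells with both Mki67 and Top2a at 10 it was -0.43, above the -0.54 of all genes. At a threshold of 50 it was -0.51, beside -0.40 for all genes. It was below that of all genes in each setting but the one with both genes at 10. At passage 1 the list's median was 0.24, and 0 of 19 genes met the rule in either direction. Of all genes there, 8.68% met it higher and 3.33% lower.

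Acta2 and Tagln were at 10 in all 45 cells. Acta2, smooth muscle actin, ran from 344 through 2405 to 8358 in the Mki67/Top2a cells and from 153 through 2931 to 17576 in the others, with a log2 ratio of -0.58. Cell 14, with 32 G2 and M phase genes, held 8358 of Acta2, and cell 9, with 44, held 2456. Tagln (SM22, an actin binding protein) had values of 233, 860 and 3483 against 20.3, 1444 and 6547, with -0.83. Every Mki67/Top2a cell lay inside the range of the other cells in both genes. Reads of Acta2, Actg2 and Actb can be shared between these near-identical actins, as the handling of such reads is not given.

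Tpm1, tropomyosin, had a log2 ratio of -0.39, Cald1, caldesmon, -0.42 and Flna, filamin, -0.45, each at 10 in all 45 cells. Myl9, the regulatory light chain, had 0, 177 and 1201 against 1.19, 368 and 2911, with -0.76. Tpm2 had 0.40, and cell 8 held 1.00 of Tpm2 where the other 9 held 146 or more. None of these met the size rule.

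Markers of the mature state were found in part of the cells of each group. Myh11, smooth muscle myosin heavy chain, was at 10 in 4 of 10 and 14 of 35 cells, and cells 9 and 13 held 119 and 90.6. Cnn1, calponin, was at 10 in 2 of 10 and 6 of 35 cells, at 47.6 and 38.4 in cells 14 and 32. Myocd, the coactivator that drives contractile genes, was at 87.1, 205 and 185 in cells 9, 14 and 28, which had 44, 32 and 24 G2 and M phase genes, and at 0 in the other 7. Of the 35 others, 5 had Myocd at 10, and its log2 ratio of 1.88 did not meet the size rule, while 2.87 without cells 13, 15, 30, 32 and 45 did.

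Actg2, enteric smooth muscle actin, had a log2 ratio of 2.15 from cells 14 and 20, at 263 and 101, and did not meet the rule, while 3.12 without those 5 cells did. Smtn (-0.50), Mylk (-0.95), Synpo2 (-1.0), Ppp1r12b (-1.02), Csrp1 (-2.14) and Filip1l (0.29), given as log2 ratios, did not meet it either. Mylk was at 10 in 6 of 10 cells with a median of 79.4 and in 16 of 35 with a median of 4.70, so its mean and median differ in direction. Des, Kcnmb1 and Pln had too few reads to be compared, and Pln was listed at 0 in all 45 cells.

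Vcl, vinculin, which links actin to integrins at focal adhesions (chromosome 14, 20929398 to 21033676), was the contractile gene with the highest pair share. Cells 8, 9, 13, 14, 15, 20, 28, 30, 32 and 45 held 359, 290, 19.7, 704, 7.22, 861, 639, 366, 550 and 238. The 35 others ran from 41.9 through 1055 to 4479, and every Mki67/Top2a cell lay below their median. The means were 403 ± 284 (SD, n = 10 cells) and 1266 ± 931 (SD, n = 35 cells), a log2 ratio of -1.65. Vcl was lower in 83.7% of pairs.

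The 2 lowest cells, 13 and 15, are those with the fewest genes, and without them the log2 ratio of Vcl was -1.34. It was -1.15 without those and cells 30, 32 and 45, and met the size rule in both. At passage 1 the log2 ratio of Vcl was -0.01.

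Lmod1, which nucleates actin in smooth muscle, was at 10 in 4 of 10 and 27 of 35 cells, with values of 0, 3.53 and 72.7 against 0, 46.1 and 251. Its log2 ratio was -1.58, and it missed the rule at -1.21 without cells 13, 15, 30, 32 and 45, and at -0.98 without the 25% of cells with the fewest genes. Itga8, the integrin α8 subunit of smooth muscle, was at 10 in 5 of 10 and 31 of 35 cells, and cells 13 and 32 held 587 and 589 while the other 8 held 101 or less. The log2 ratio of Itga8 was -1.03, and -4.95 without cells 13, 15, 30, 32 and 45. It was -1.72 without cell 32 alone, and -0.91 and short of the rule without the endothelial marker cells 8 and 11.

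**Figure D5:**
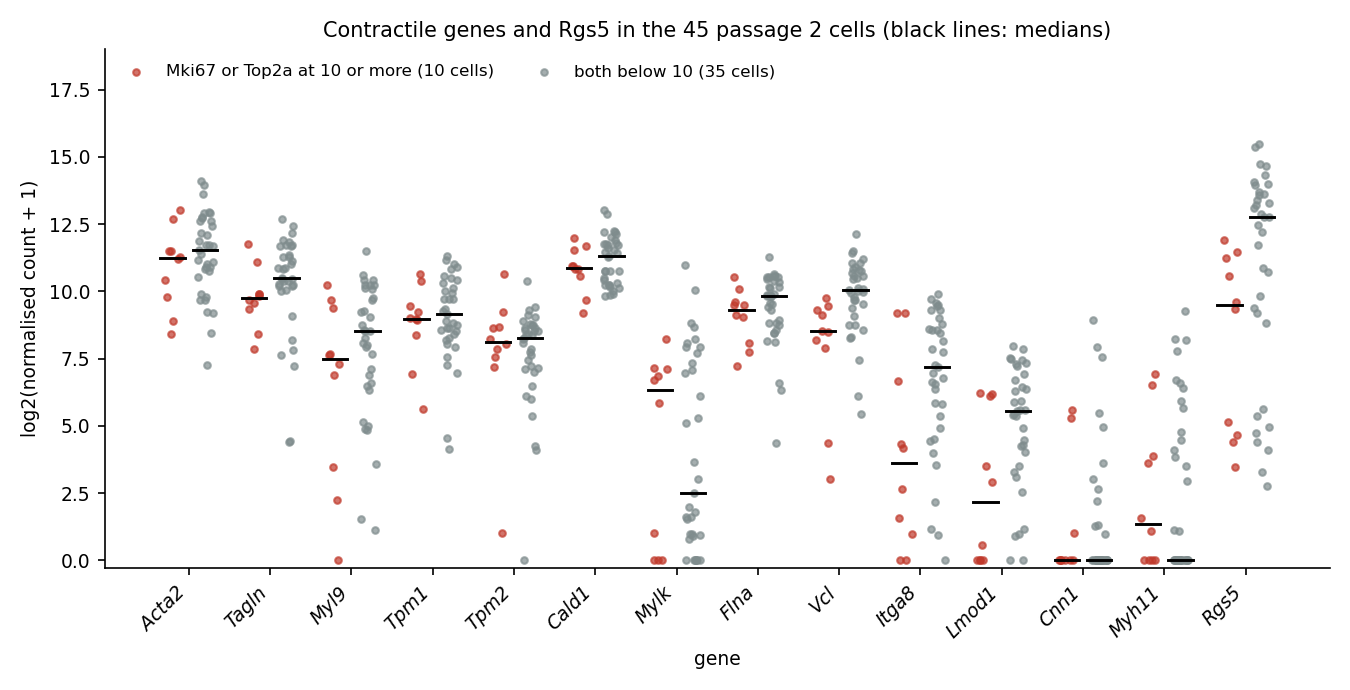
log2(normalised count + 1) of 13 contractile genes and Rgs5 (x axis) in the 10 Mki67/Top2a cells (red) and the 35 other cells (grey), 1 point per cell, with the median of each group as a black line. The groups overlap in Acta2, Tagln, Tpm1 and Cald1, and all red points of Vcl lie below the grey median.

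Of 20 regulators of smooth muscle and mural genes, 2 met the size rule lower (Rgs5 and Mef2c) and none higher, with a median log2 ratio of -0.75. That median was -1.60 without cells 30, 32 and 45 and -0.49 without cells 13 and 15. Rgs5, which damps G protein signals and marks mural cells (chromosome 1, 169655501 to 169695813), ran from 9.96 through 719 to 3828 in the Mki67/Top2a cells. In the others it ran from 5.70 through 6941 to 45752, and its log2 ratio was -2.96, with 74% of pairs lower. All 10 cells lay below the others' median, and 4 of them (8, 9, 28 and 45) held 34.1 or less. At passage 1 the log2 ratio of Rgs5 was 0.51. Mef2c, a transcription factor of muscle, had means of 85.4 and 301, a log2 ratio of -1.80.

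Genes of an actomyosin and focal adhesion list, which shares Vcl with the contractile list, were near the level of all genes at the median. The 30 genes of actomyosin and focal adhesions had a median log2 ratio of -0.10, with Vcl alone meeting the size rule, and that median was above 0 on counts scaled to the read total (0.06) and after thinning (0.07), and -0.25 without cells 30, 32 and 45. Of 20 targets of SRF and YAP, 3 met the rule lower (Ccn2, Vcl and Myof). Their list had a median of -0.53, lower than the -0.29 of all genes. Without cells 13 and 15 the median of this list was -0.29, beside -0.19 for all genes, and Ccn2 and Myof missed the rule at -0.99 and -0.87. Ccn2, a matricellular protein, had means of 342 and 837, a log2 ratio of -1.29, and was lower in 85.4% of pairs. Actb had means of 9616 and 9952.

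Matrix and synthetic genes, which cultured VSMCs express, had a median log2 ratio of -0.33, close to that of all genes, and of -0.87 without cells 13, 15, 30, 32 and 45, where all genes had -0.32. Of 35, Col3a1 (-1.31) and Ccn2 met the size rule lower and none higher, and Col3a1 missed it without cells 13 and 15 (-1.11) and without cells 30, 32 and 45 (-1.07). Fn1, fibronectin, had values of 1383, 3783 and 10686 against 595, 3910 and 9909, a log2 ratio of -0.01. Immediate early and stress genes had a median log2 ratio of -0.58, or -0.34 without cells 13 and 15, with Jun (-1.01), Btg1 (-1.19) and Klf2 (-3.30) of 22 meeting the rule lower. Klf2 had -5.11 without cell 45, and missed the pair share without cells 8 and 11 (-2.78) and without cells 13 and 15 (-3.05). Btg1 missed the rule without cells 13 and 15 (-0.87). Jun, at 10 in 1 of 10 and 18 of 35 cells, missed it under each of 5 removals of cells, with log2 ratios of -0.88 to -0.07. Jun was also lower at passage 1 (-1.41), where the list's median was -0.90.

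Genes of growth outside the cycle showed smaller ratios. Cytosolic ribosomal protein genes had a median log2 ratio of 0.28, with 26 of 30 above 0, beside 3708 of all 9325. None was past the size rule, and Rps2 was the highest at 0.84. Without cells 13 and 15 the median was 0.11. Ribosome biogenesis and translation factors had a median of 0.52, which was 0.10 without cells 8 and 11 and 1.21 without cells 13, 15, 30, 32 and 45, and Nhp2, a protein of snoRNA complexes, met the rule higher (1.79). Nuclear genes of oxidative phosphorylation had 0.23, or 0.07 without those 5 cells, with Cox5a (1.16) and Atp5b (1.00) meeting the rule higher. Both missed it without cells 13 and 15, at 0.72 and 0.63.

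Transcripts of the mitochondrial genome went the other way, with 13 of 13 below 0, beside 5617 of all 9325 genes. Their median log2 ratio was -0.61, and 2 met the rule lower (mt-Nd2 at -1.12 and mt-Nd4l at -1.28). mt-Nd2 missed it without cells 30, 32 and 45 (-0.90), and mt-Nd4l without those and cells 13 and 15 (-0.87). Mitochondrial reads were 4.07% of all at the median in the Mki67/Top2a cells and 5.29% in the others. The part of cell quality in these ratios was not tested. Of single genes in other lists, Pkm, a glycolytic kinase (1.38), H2afz, a histone variant (1.96), and Hmgn2, a nucleosome binding protein (1.76), were higher by the size rule. H2afz was at 10 in 10 of 10 and 21 of 35 cells.

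Cell cycle brakes and G1 genes were spread in both directions. Enough reads were present for 21 genes of p53, growth arrest and senescence and 12 of G1 cyclins and mitogen response. None met the size rule, and the list medians of the log2 ratio were 0.05 and 0.06. Of all genes 1.47% met it higher and 4.04% lower, so a count of none in short lists is no result about these genes. The first list ran from -3.19 (Sesn1) to 1.72 (Cdkn2c) and the second from -2.37 (E2f1) to 1.52 (Cdk2). The first median was 0.41 without cells 13, 15, 30, 32 and 45, and the second -0.35 without cells 8 and 11. Ccnd2, a G1 cyclin, had values of 115, 895 and 2764 against 17.8, 648 and 2765, a log2 ratio of 0.34. Of 15 DNA repair genes none met the rule either, with a median of 0.19, which was -0.10 without cells 8 and 11 and 0.76 without cells 13, 15, 30, 32 and 45.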

How the data were processed

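Single VSMCs were captured on a Fluidigm C1 system and made into Nextera XT libraries, per the labels' protocols. Per the submitters' processing notes, the reads were handled with BWA and SAMtools, HTSeq and DESeq on GRCm38. Tool versions and the handling of strand and of reads shared between genes are not given in the sources used here. The deposited signal of a gene is its count over a size factor, and each cell has its own factor. Dividing each column by its smallest value above 0 gave reads, and 100% of values lay within 0.001 of a whole number. Traction force measurements were not analysed here.

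A gene was compared where its mean over the 45 passage 2 cells was 5 or more and at least 5 of them had a read. The log2 ratio used a pseudocount of 1, so differences of low genes are understated, and pair shares counted ties in both directions equally. A count test on the reads was not run, because each group lies within 1 sample. Shares of cells are given at a value of 10, because 29.3% of the values above 0 stood for 1 to 3 reads. Symbols came from GENCODE M21. The 28 gene lists, 11 marker lists, the members and the rules were chosen with earlier results of these data known.

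Named genes were the 15 highest and 15 lowest ratios outside the cell cycle list (past the size rule, at 10 in at least 50% of the higher group, and keeping direction whichever cell was left out), the 6 S phase and 6 G2 and M phase genes with the highest means, all contractile genes (1 of them is not reported here), and the members of each other list with the highest mean and the highest and lowest ratio. Promoter windows were sought for the 3 highest cell cycle genes of each list, Acta2 and Tagln, and none was found for Smc4 and Tagln. Alternatives were other pseudocounts, filters, scalings, summaries, thresholds of the rule, thinning to 500000 reads, removal of cells by quality or marker, and each of 45 cells left out in turn. No doublet caller was run on 67 cells. The code for the calls was run on simulated counts with known folds. The outcome is not given here and is no support for the genes named. Versions were R 4.3.3 with edgeR 4.0.16 (for TMM scaling only), and Python 3.11.15 with matplotlib 3.10.9, scipy 1.17.1, pandas 2.3.3 and numpy 2.4.6.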

Additional observations from a re-analysis of the deposited data

Results flagged for a closer look

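Among the 10 Mki67/Top2a cells, 68 quantities were checked for a single cell far from the rest on the log2(value + 1) scale, and 6 were found. The cut-off is set to flag about 5% of groups by chance, but for bell-shaped values. That rate does not hold here, since a gene read in a single cell is flagged whatever its value. Nr2c2 was at 17 in cell 20, where the other 9 cells held 0 to 1.32. Gpc3 was at 139 in cell 14 against 0 to 3.73, and Ide at 63.0 in cell 9 against 0 to 8.01. Tmem140 was at 36.7 in cell 30 with no read in the other 9, and Synpo2, a contractile gene, was at 142 in cell 28 with no read in the other 9. Tpm2 was the only one with a low cell, at 1.00 in cell 8, the endothelial marker cell, against 146 to 1608. The part of cell type in the Tpm2 value was not tested.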

How the results depend on the processing

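The number of genes past the size rule depended on which cells were compared. Main counts were 137 higher and 377 lower. Leaving out each cell in turn gave 113 to 211 higher, with 211 without cell 15, and 299 to 471 lower. A filter at a mean of 20 gave 86 higher. A threshold of 3 for Mki67 or Top2a chose 11 cells against 34 and gave 114 higher and 315 lower. Of the 514 main genes, 338 were also past the rule there. A threshold of 50 for Mki67 or Top2a gave 434 higher and 591 lower, and cells with both genes at 10 gave 942 higher and 1094 lower. Without the 25% of cells with the fewest genes 406 were higher. Chosen after seeing the data, removal of cells 30, 32 and 45 gave 296 and 770, of cells 13 and 15 gave 335 and 239, and of all 5 gave 707 and 565. Of the 514 genes past the rule, 425, 303 and 320 were also past it in these 3 settings. The share higher was 26.7%, and 58.4% without cells 13 and 15. Leaving out each cell gave list medians of 3.39 to 4.51 for G2 and M phase, 0.36 to 1.12 for S phase and -0.98 to -0.66 for contractile genes. The G2 and M phase median was 1.99 with means of log2 values and 0.67 with medians over cells. Papss1 reversed at a threshold of 50 (-1.47), and Noc2l with both genes at 10 (-1.03) and without all 5 cells (-0.51). The cause was not tested. With 10 cells, a gene found in few cells rests on 1 or 2 of them, and a share of 0 of 10 allows up to 30%. No paired analysis was possible because the groups are cells of 1 passage.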

Other observations

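Genes of cholesterol synthesis showed a wide spread among the Mki67/Top2a cells. Hmgcs1, an early enzyme of the pathway, ran from 0.533 through 353 to 1863 in the 10 cells and from 0 through 104 to 3453 in the others, a log2 ratio of 0.83 that did not meet the size rule, while 1.15 without cells 13 and 15 did. Lss, a later enzyme, was at 10 in 3 of 10 and 1 of 35 cells with a log2 ratio of 4.69. Cells 20, 30 and 32 held 23.6, 207 and 407 of Lss, and without cells 30, 32 and 45 its log2 ratio was 0.80. Sqle had -0.99, and -1.31 past the rule without those 3 cells. Neither Lss nor Sqle met the rule over all cells, and Pmvk (1.89) alone of 19 did, which missed it without cells 8 and 11 (1.72). The list's median log2 ratio was 0.23, and -0.52 without cells 30, 32 and 45.

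Cxcl12, a chemokine, had values of 66.1, 1789 and 2914 in the Mki67/Top2a cells and of 4.08, 1156 and 3457 in the others, a log2 ratio of 0.49. None of 15 inflammatory and 12 interferon response genes met the size rule, which 1.47% of all genes met higher and 4.04% lower. Tubb6, a tubulin, had values of 0.481, 257 and 2958 against 3.19, 86.9 and 1035, a log2 ratio of 1.88 with 58.6% of pairs higher, and did not meet it either, while 2.39 without cells 30, 32 and 45 did. Tbp, a general transcription factor often used as a reference gene, was lower by the rule (-1.5), missed it without cells 13 and 15 (-1.20), and was higher by it at passage 1 (1.83).

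Emp1, a membrane protein, and Psmd2, a proteasome subunit, fell outside the rule for names and were chosen after their values were seen. Both were at 10 in 10 of 10 Mki67/Top2a cells, against 24 and 27 of 35. Their log2 ratios were 2.03 and 1.67, with 86.9% and 86% of pairs higher, and at passage 1 they were -0.49 and -0.11.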
